A study of Mus musculus with 24 samples.

Results

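The cadherin gene Cdh8 and 9 further members of its superfamily, Cdh2, Cdh3, Cdh4, Cdh5, Cdh6, Cdh10, Cdh11, Cdh13 and Cdh15, were followed in sorted dermal papilla (DP) cells of the mouse hair follicle. They were taken by gene symbol, and all 10 were found among the 25755 genes of the tables. The set was chosen by the P28 difference between genotypes, in which Cdh8 showed the largest rise, so every P28 difference between genotypes in these 10 genes is given as a description without a test. The DP is the dermal compartment of the follicle, a small cluster of mesenchyme that exchanges signals with the epithelium around it. RNA was sequenced from 3 control and 3 mutant mice at each of 4 ages, namely postnatal day 20 (P20, first telogen, the resting phase), P24 (early anagen, the growth phase), P28 (mid anagen) and P60 (second telogen). The mutants, called dM1/2, were homozygous for floxed alleles of Hdac1 and of Hdac2, which encode class I histone deacetylases, and carried Corin-cre, a Cre line that is active in the DP. All controls carried Corin-cre as well, with 1 or more floxed alleles of these genes, and the genotype of each control library is not given. A Cre-dependent YFP reporter allowed the DP cells of both groups to be isolated by FACS. Mice were females at P20, males at P24 and P28 and of both sexes at P60, so age, sex, sequencing depth and hair-cycle stage cannot be told apart.

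Classical cadherins are single-pass membrane proteins whose extracellular repeats bind calcium and pair with cadherins of neighbouring cells. Their cytoplasmic tails bind p120 and beta-catenin, and through alpha-catenin the adhesion is linked to actin. Type I members (here Cdh2, Cdh3, Cdh4 and Cdh15) and type II members (Cdh5, Cdh6, Cdh8, Cdh10 and Cdh11) differ in the adhesive interface of the outermost repeat, whereas Cdh13 has no cytoplasmic tail and is held in the membrane by a GPI anchor. Cells tend to sort by the kind and amount of cadherin that they carry. In the follicle, P-cadherin (Cdh3) belongs to the epithelium that surrounds the DP, and N-cadherin (Cdh2) and cadherin-11 are typical of mesenchyme.

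Levels are given as normalized reads, which are reads per gene divided by a size factor of the library, and depth on genes was 11635062 to 13369732 reads per library at P20, 35469841 to 49331751 at P24, 37171260 to 48331795 at P28 and 8171944 to 9724000 at P60. Of the targeted genes, Hdac1 was at 675, 668 and 668 normalized reads in the controls and 209, 188 and 116 in the mutants at P24 (log2 fold change -2.01, SE 0.22, adjusted p = 0.00167). At P28 the libraries labelled control held 214, 529 and 105 and the mutants 190.2, 149 and 126, so the library labelled P28 control 3 lay below all 3 mutants. Hdac1 did not pass the threshold at P20, P28 or P60 and Hdac2 passed it at no age. Which exons are deleted is not given in the sources used here, and reads outside them check nothing. The authors report from immunostaining that most mutant DP cells had lost both proteins by mid anagen of the first cycle. The summed DP markers (10 genes, among them Corin, Sox2, Alpl and Rspo3) were 150375 to 184386 normalized reads in P24 controls against 61579.6 to 73344 in P24 mutants, and 107306 to 264196 against 44105 to 50707 at P28. At P20 these sums overlapped between genotypes. The list also holds Fgf7 and Fgf10, and the authors report lower Fgf7, Fgf10 and Rspo3 in the mutant DP at mid anagen. The sum is thus not a count of DP cells. The summed dermal fibroblast markers (7 genes) ranged from 4662 to 89241 among the 3 libraries labelled P28 control. In controls of the other ages they were 83018 to 134792 at P20, 11418 to 43689 at P24 and 106956 to 120734 at P60. The DP sums in controls were 18697 to 26009 at P20 and 13566 to 23678 at P60. The sorted cells thus differed between ages in these sums, and the part of this in the age courses below was not tested.

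The promoter windows of Cdh8, Cdh6 and Cdh10 are shown because these are 3 type II genes that followed different courses over the hair cycle. Each runs from 250 bases before to 50 bases after the annotated start (RefSeq, GRCm38.p6), 5′ to 3′ on the strand of the gene, with capitals marking GGGCGG, the core of a GC box, on either strand.
Cdh8, chr8:99416422-99416721, minus strand: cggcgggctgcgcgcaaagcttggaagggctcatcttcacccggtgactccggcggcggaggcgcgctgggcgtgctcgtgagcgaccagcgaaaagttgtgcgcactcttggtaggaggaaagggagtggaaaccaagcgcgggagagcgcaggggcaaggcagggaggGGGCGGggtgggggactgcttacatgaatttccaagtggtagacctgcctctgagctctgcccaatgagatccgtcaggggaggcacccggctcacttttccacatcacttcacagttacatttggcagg
Cdh6, chr15:13173626-13173925, minus strand: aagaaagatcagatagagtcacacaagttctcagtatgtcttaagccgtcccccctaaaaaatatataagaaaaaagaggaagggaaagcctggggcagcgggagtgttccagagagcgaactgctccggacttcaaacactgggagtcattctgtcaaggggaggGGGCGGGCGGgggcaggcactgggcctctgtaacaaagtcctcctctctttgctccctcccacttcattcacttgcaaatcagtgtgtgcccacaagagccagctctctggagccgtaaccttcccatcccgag
Cdh10, chr15:18820079-18820378, plus strand: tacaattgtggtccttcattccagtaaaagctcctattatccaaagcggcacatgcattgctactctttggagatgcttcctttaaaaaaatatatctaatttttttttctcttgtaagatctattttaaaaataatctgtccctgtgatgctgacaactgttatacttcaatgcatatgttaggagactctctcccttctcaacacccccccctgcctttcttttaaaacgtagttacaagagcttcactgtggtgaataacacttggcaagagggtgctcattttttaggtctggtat
The Cdh8 window had 62.3% GC with 21 CG dinucleotides and 1 GC box, the Cdh6 window 53% GC with 8 CG and 2 overlapping GC boxes, and the Cdh10 window 37.7% GC with 2 CG and none. The Cdh10 window lies inside the gene, downstream of the gene start given below (chr15:18818947). The Cdh8 and Cdh6 windows include the gene start, so the Cdh10 window is not like for like with them. The median of all 32841 windows was 52.7% GC and 7 CG, and 35.7% of the windows held GGGCGG. Neither CACCTG (both strands, an E-box bound by Snail and Zeb factors, in 20.2% of windows), nor TATAAA (13.6%), nor CTTTGAT (a Tcf/Lef motif, 3.73%) was present in any of the 3 sequences. The window of Cdh15 was also present, with 3 GC boxes, and is not printed because the gene was near the limit of detection. Windows for Cdh2, Cdh3, Cdh4, Cdh5, Cdh11 and Cdh13 were not used here.

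In anagen Cdh8 was almost silent in control DP cells and was high in dM1/2 DP cells. The P20 controls held 0 to 9 Cdh8 reads per library and the P60 controls 0 to 1, at lower depth. The Cdh8 gene lies at chr8:99024471-99416471, minus strand (GRCm38). At P24 the 3 controls held 5.8, 2.01 and 3.18 normalized reads (15, 4 and 8 reads) and the 3 mutants 125, 196 and 195 (343, 515 and 576 reads). Every mutant was far above every control, with means of 3.66 ± 1.94 and 172 ± 40.9 (SD, n = 3 each), a ratio of 46.9. The log2 fold change on the log2(normalized reads + 1) scale was 5.26 (SE 0.40, adjusted p = 0.000702) by limma. Cdh8 reached the filter of a mean of 10 normalized reads through the mutants alone, and a gene that enters a fit in this way has to differ, so the levels in the 6 libraries are the result here and the p adds little to them. These libraries took no part in choosing the gene. Of the 14028 genes tested at P24, 26.6% passed the threshold (adjusted p under 0.05), 14.8% being higher in dM1/2 and 11.8% lower. In bulk libraries such as these, fewer cells of a type and less RNA per cell cannot be told apart.

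At P28, the contrast by which the set was chosen, controls held 0, 0.64 and 1.52 normalized reads (0, 1 and 4 reads) and mutants 379.5, 523 and 452 (890, 1221 and 1127 reads). The P28 mutants were all above the P24 mutants, with a ratio of means of 2.63. The difference on the log2 scale was 8.13 with all libraries. It was 7.79 without P28 control 1, 8.14 without P28 control 2 and 8.45 without the library labelled P28 control 3. With other settings it was 5.42 to 9.19, so its size depends on the processing. At P20 the controls were at 0, 24.3 and 5.74 and the mutants at 13.6, 13.3 and 14.8 normalized reads, from 0, 9 and 2 and 6, 6 and 8 reads, and the groups overlapped (log2 fold change 1.42, SE 1.11, adjusted p = 0.496). At P60 they were at 2.1, 0 and 2.31 and 5.05, 12.6 and 25.9, from 1, 0 and 1 and 2, 5 and 11 reads. The P60 groups did not overlap, but the mean over the 6 libraries was below the filter of 10 normalized reads and Cdh8 was not tested there. Among the mutants the order was thus P28, then P24, then P60 and P20, whose ranges overlapped.

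The difference of the genotype effect between P24 and P20 was 3.84 (SE 1.24, adjusted p = 0.0747) for Cdh8, which did not pass the threshold. It passed in limma with a pseudocount of 10 (adjusted p = 0.00396), in 1 fit over all 24 libraries (0.0495) and without P20 control 1, which had no Cdh8 read (0.00405). On the recovered reads it passed by edgeR with TMM (adjusted p = 0.013), by edgeR with DESeq2 size factors (0.0128) and by DESeq2 (4.32e-07). It did not pass with a pseudocount of 0.5, with no filter, with the replicate block, on log2-CPM or when any other single library was left out. Between P24 and P60 the difference was 2.68 (SE 0.92, adjusted p = 0.108, limma), and it passed only with a pseudocount of 10 (adjusted p = 0.0098) among the alternatives. The P20 and P60 libraries were shallower, and each of their few Cdh8 reads was worth several normalized reads, so a small difference was not detectable there at this depth. In both fits of 12 libraries Cdh8 reached the filter only with the P24 mutants. The adjusted p values of these differences thus add little to the levels given above, whichever setting is used.

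**Figure D1:**
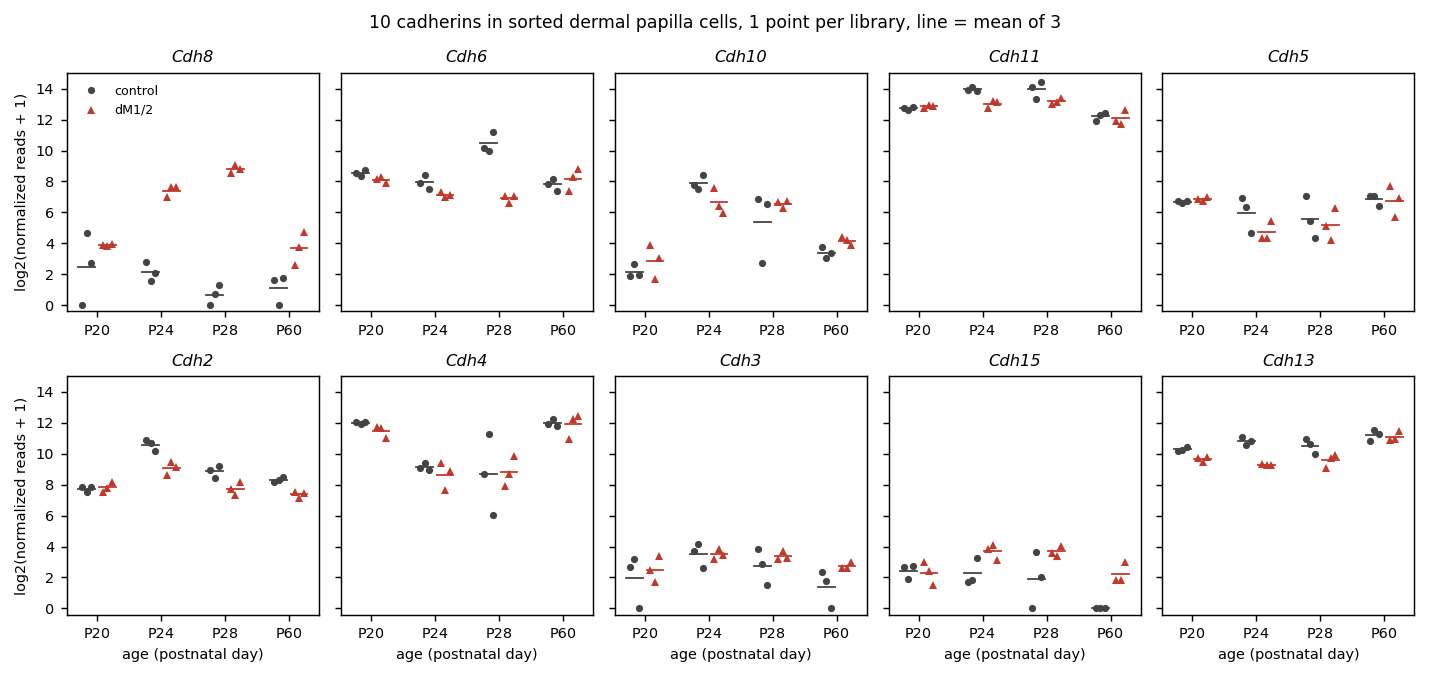
Levels of the 10 cadherins in every library, as log2(normalized reads + 1) against age, with grey circles for controls, red triangles for dM1/2 and a line at the mean of 3 libraries. In the Cdh8 panel the P24 and P28 mutants stand above all controls, Cdh6 controls rise at P28 while the mutants do not, and Cdh4 falls from P20 to P24 in both genotypes.

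Within 1 Mb of Cdh8, a window set after its values had been seen, the only tabulated gene was A330008L17Rik (ENSMUSG00000052479, chr8:99416642-99733438, plus strand, GRCm38), a long non-coding RNA that starts 0.171 kb away and runs in the opposite direction. Its start lies inside the Cdh8 promoter window printed above. It had 0, 0 and 0 reads in the P28 controls and 30, 36 and 23 in the P28 mutants, at least 8.58-fold higher in normalized reads when each control library is set to the 3 reads that a count of 0 allows. At P24 it had 0, 0 and 1 reads in controls and 7, 5 and 12 in mutants. It had 0, 0 and 0 and 1, 0 and 4 at P20 and none in any P60 library. All 6 anagen mutants were thus above all 6 anagen controls in reads, as for Cdh8, and the transcript was below the filter at each age and had no test. The other 13 annotated genes in that window, none of them protein-coding, were not analysed here. Whether the counting used strand is not given, so reads from overlapping antisense transcripts cannot be separated from those of Cdh8.

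**Figure D2:**
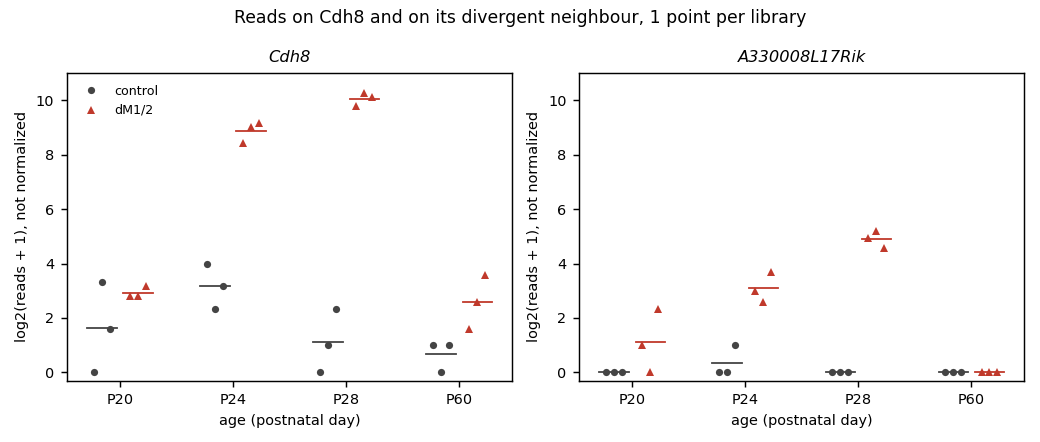
Reads on Cdh8 and on the divergent non-coding gene A330008L17Rik, as log2(reads + 1) without normalization against age, 1 point per library with lines at group means. Both are low in controls at P24 and P28 and higher in all 6 mutants of these ages, with at most 36 reads for A330008L17Rik.

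Among the 5 genes whose profile over the 24 libraries was most like that of Cdh8, by Pearson's r on log2(normalized reads + 1) among 14243 genes, were Lrpprc (0.951), Gamt (0.934), D10Wsu102e (0.933) and Mettl13 (0.929). The libraries share their depth, age and genotype, so these values describe a common profile. Lrpprc, a regulator of mitochondrial RNA, went from 631 ± 73 in P24 controls to 1302 ± 87.4 in P24 mutants and from 606 ± 106 to 1636 ± 43.8 at P28 (normalized reads, SD, n = 3). Of these 4 genes, Gamt and Lrpprc were also among the 5 nearest by Spearman's rho, and only Lrpprc was so with a pseudocount of 10.

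Cdh6 (K-cadherin), a type II cadherin of kidney and neural development, moved the opposite way. It lies at chr15:13028701-13173675, minus strand. At P28 the controls held 1160.1, 1015 and 2362 normalized reads and the mutants 135, 96.8 and 131, with no overlap. The log2 difference at P28 was -3.54 (SE 0.33), -3.78 without P28 control 2 and -3.17 without the library labelled P28 control 3, given as a description. The P28 controls were also above the P24 controls, with a ratio of means of 6.0, whereas the mutants of both ages overlapped.

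At P24 Cdh6 was at 243, 335 and 178 in controls and 155, 124 and 139 in mutants, again without overlap (log2 fold change -0.81, SE 0.24, adjusted p = 0.0441, limma). This call was close to the threshold and was lost when P24 control 1 (adjusted p = 0.0929), control 2 (0.134) or dM1/2 1 (0.079), 2 (0.125) or 3 (0.108) was left out of the limma fit. In telogen the groups lay closer together. P20 controls were at 378, 327 and 419 and P20 mutants at 282, 316 and 240.4 (log2 fold change -0.42, SE 0.16, adjusted p = 0.199). P60 controls were at 229, 288 and 168 and P60 mutants at 167, 314 and 440.1 (log2 fold change 0.35, SE 0.37, adjusted p = 0.986, limma). Neither telogen age passed the threshold. Between P24 and P60 the effect of genotype differed by -1.16 (adjusted p = 0.175, and 0.0448 without P60 dM1/2 1, limma).

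Cdh10, a type II cadherin best known in the nervous system, was high in anagen in both genotypes, with the exception of 1 library (P28 control 2). It lies at chr15:18818947-19014236, plus strand. Controls went from 2.68, 5.41 and 2.87 normalized reads at P20 to 214, 184 and 343 at P24. Mutants held 13.6, 2.21 and 7.4 at P20 and 192, 83.4 and 60.5 at P24. In each genotype all P24 libraries were above all P20 and all P60 libraries. The genotypes overlapped at P24 (log2 fold change -1.26, SE 0.43, adjusted p = 0.0677), and the call was made only by DESeq2 (adjusted p = 0.0329) or, in limma, without P24 dM1/2 1, the highest mutant (adjusted p = 0.018). At P28 controls were at 117, 5.76 and 90.3 and mutants at 101, 75.4 and 105. The log2 difference there was 1.17, and -0.14 without P28 control 2, the low library. At P60 controls were at 12.6, 7.15 and 9.22 and mutants at 20.2, 17.6 and 14.1, which do not overlap but differ by few reads (log2 fold change 0.80, SE 0.53, adjusted p = 0.986, limma). Between P24 and P60 the effect of genotype differed by -2.06 (adjusted p = 0.0656, and 0.0388 without P24 dM1/2 1).

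Cdh11 (OB-cadherin), the main cadherin of mesenchyme, was the most abundant member per exon length in every group but those of P60, and was lower in dM1/2 at P24. It lies at chr8:102632095-102785642, minus strand. P24 controls held 15587, 17452 and 14669.8 normalized reads and P24 mutants 6963, 9602 and 8965. The highest mutant was below the lowest control (log2 fold change -0.91, SE 0.17, adjusted p = 0.00896, limma). At P20 the levels were 7023, 6444 and 7305 in controls and 6981, 7713 and 7672 in mutants, which overlapped (log2 fold change 0.11, SE 0.11, adjusted p = 0.621). The difference of the genotype effect between P24 and P20 was -1.02 (SE 0.19, adjusted p = 0.0103) by limma. Controls had thus gone up from P20 to P24 by a ratio of means of 2.3, without overlap, while mutants of both ages overlapped (1.14).

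At P28 the Cdh11 controls spread widely, at 18003, 10309 and 21995, and the mutants were at 8361, 8952 and 10631. Controls 1 and 3 were above all mutants. The log2 difference was -0.79, and -1.10 without P28 control 2, which lay inside the range of the mutants. At P60 the controls were at 3837, 5143 and 5480.3 and the mutants at 3888, 3359 and 6293 (log2 fold change -0.13, SE 0.26, adjusted p = 0.991, limma). The summed DP markers were lower in mutants in the same P24 and P28 comparisons, with the ranges given above. Their part in the Cdh11 values was not tested.

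Cdh5 (VE-cadherin), the type II cadherin of endothelium, was low and passed the limma threshold at no age. It lies at chr8:104101625-104144511, plus strand. P24 controls were at 118, 80.3 and 24.6 normalized reads and P24 mutants at 18.9, 19 and 43.3 (log2 fold change -1.27, SE 0.60, adjusted p = 0.161). The P24 call was made by DESeq2 (adjusted p = 0.0478). Without P24 control 3, the lowest control, the limma call was made (adjusted p = 0.0154), as was that of the difference between P24 and P20 (0.0184 in place of 0.194). The values over the other ages were 94.7 to 129 at P20, 17.6 to 131 at P28 and 50.3 to 207 at P60. The other endothelial markers, 9 genes with Pecam1 and Kdr among them, summed to 491 to 1106 in P24 controls and 699 to 1268 in P24 mutants, which overlap, and to 410.3 to 6203 over all 24 libraries. Tek (116 to 5112 over all libraries) and Kdr (90.9 to 1016) were the most abundant of them, and Cldn5 (0 to 18.7) and Emcn (0 to 14.3) the least. At P24 the mutants lay below all controls for Pecam1, Tie1 and Cldn5, above all controls for Kdr, Egfl7 and Flt1, and overlapped them for Tek, Emcn and Esam. Pecam1 was at 58.4 to 108 in P24 controls and 26.2 to 39.6 in P24 mutants, and Flt1 at 56.7 to 77.4 and 184 to 386. These 2 were picked after their values had been seen. Whether the Cdh5 reads come from endothelial cells was not tested.

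Cdh2 (N-cadherin), a type I cadherin, peaked in early anagen and was lower in dM1/2. Controls held 225, 181 and 227 normalized reads at P20 and 1911, 1646 and 1167 at P24, a ratio of means of 7.46. Mutants held 184, 221 and 287 at P20 and 391, 718 and 561 at P24, a ratio of 2.41. All P24 mutants were below all P24 controls, and above all P20 libraries of either genotype (log2 fold change between genotypes at P24 -1.51, SE 0.26, adjusted p = 0.00607). The difference of the genotype effect between P24 and P20 was -1.62 (SE 0.34, adjusted p = 0.015) by limma. At P28 controls were at 489, 349.7 and 587 and mutants at 212, 159 and 287, a log2 difference of -1.12, and -0.95 without the library labelled P28 control 3. At P60 controls were at 283, 319 and 355 and mutants at 182, 141 and 174. The P60 groups did not overlap, but the difference of -0.95 (SE 0.20) did not pass the limma threshold (adjusted p = 0.952, unadjusted p = 0.00136). Mutants were thus below controls without overlap at P24, P28 and P60, and overlapped them at P20.

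Cdh4 (R-cadherin), a type I relative of Cdh2, ran against it and was higher in telogen than at P24, as were the summed fibroblast markers. It lies at chr2:179442431-179899373, plus strand. Controls held 4315, 3901 and 4236 normalized reads at P20, 547, 668 and 494 at P24 and 3808, 4774 and 3525 at P60. The P24 controls were below all telogen controls, by a ratio of means of 7.29 to P20. Mutants followed the same course, with 3349, 3180.3 and 2049 at P20, 677, 197 and 469 at P24 and 1994, 4908 and 5639 at P60. The P20 mutants lay below the P20 controls without overlap, but the difference did not pass the threshold (log2 fold change -0.57, SE 0.18, adjusted p = 0.134), nor did that at P24 (log2 fold change -0.51, SE 0.41, adjusted p = 0.397, limma). At P28 the controls were at 414, 2461 and 65.6 and the mutants at 237, 411 and 909. The 3 libraries labelled P28 control thus enclosed the mutants, and the log2 difference of 0.13 was 1.43 without control 2 and -1.18 without control 3. The summed fibroblast markers were at 42022, 89241 and 4662 in the same 3 libraries in that order, and their part in the Cdh4 values was not tested.

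Cdh3 and Cdh15 were near the limit of detection. Cdh3 (P-cadherin), an epithelial cadherin, lies at chr8:106510891-106557297, plus strand, and did not exceed 17.1 normalized reads in any library. At P24, the only age at which it reached the filter, controls were at 12, 17.1 and 5.16 and mutants at 8.0, 13.3 and 10.1 (log2 fold change -0.0032, SE 0.54, adjusted p = 0.998, limma). The summed keratinocyte markers (13 genes) were 173 to 723 in P24 controls and 119.9 to 189 in P24 mutants, 266 to 768 at P20, 140.3 to 363 at P28 and 389.6 to 920.2 at P60. Cdh15 (M-cadherin), a cadherin of satellite cells, lies at chr8:122847966-122867397, plus strand, and was below the filter at every age. Its highest level was 16.4 normalized reads, and it had no read in the 3 P60 controls. The muscle and satellite cell markers (10 other genes) summed to 691 to 1448 normalized reads at P20, 136 to 367 at P24, 63.3 to 465 at P28 and 422 to 998 at P60. At P20 most of this sum was Des (578 to 1311), Ckm, Chrna1, Tnnt3 and Acta1 had reads in every library, and Pax7, Myf5, Myod1, Myog and Myh4 had none in any.

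Cdh13 (T-cadherin), the GPI-anchored member, lay below the controls in dM1/2 at P24, P28 and P20 without overlap. It lies at chr8:118283733-119324921, plus strand. At P24 controls held 2136, 1502 and 1785 normalized reads and mutants 631, 625 and 613. The 3 mutants lay close together and far below the controls (log2 fold change -1.52, SE 0.14, adjusted p = 0.0013, limma). At P20 controls were at 1159.7, 1185 and 1385 and mutants at 862, 713 and 866. That smaller difference missed the threshold (log2 fold change -0.61, SE 0.13, adjusted p = 0.0698) but passed it with DESeq2 (adjusted p = 0.012) and with limma without P20 control 1 (0.0248). At P28 controls were at 1939, 1581 and 1007 and mutants at 545, 852 and 954, a log2 difference of -0.93, and -1.20 without the library labelled P28 control 3. At P60 controls were at 1841, 2900.5 and 2478 and mutants at 1929, 1986 and 2819, which overlapped (log2 fold change -0.10, SE 0.22, adjusted p = 0.996, limma). The genotype effect differed between P24 and P20 by -0.91 (SE 0.19, adjusted p = 0.0152), and between P24 and P60 by -1.42 (SE 0.28, adjusted p = 0.021). The latter call was lost without P24 control 1 (adjusted p = 0.0534) or P24 dM1/2 3 (0.0587, limma).

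Of the 10 cadherins, 9 passed the filter at P24, and 5 of these passed the threshold, against 26.6% of all genes. The same 5 did not overlap between genotypes, as did 44.8% of all genes. Cdh8 was higher and Cdh2, Cdh6, Cdh11 and Cdh13 were lower, and the median log2 fold change over the 9 was -0.91 against -0.013 over all genes. Cdh15 was below the filter at P24, as were Cdh3 and Cdh15 at P28, Cdh3, Cdh10 and Cdh15 at P20 and Cdh3, Cdh8 and Cdh15 at P60, and Cdh8 reached the P24 filter through the mutants alone. The P24 counts and median are thus a description of the genes that passed the filter, and without Cdh8 the counts were 4 of 8. At P28, the contrast that chose the set, 4 of 8 did not overlap, beside 51.3% of all genes. At P20, none of 7 passed by limma, and 0.433% of the 13845 genes tested did. DESeq2 called 1 member (Cdh13), and 663 of the 13845 genes. By limma, 3 members had an unadjusted p under 0.05 (Cdh4, Cdh6 and Cdh13), as did 2735 of the 13845 genes. The 3 did not overlap between genotypes, against 25.4% of all genes. At P60, none of 7 passed by limma or DESeq2, and of the 14042 genes tested 0% were called by limma and 26 genes by DESeq2. By limma, 1 member had an unadjusted p under 0.05 (Cdh2), as did 525 of the 14042 genes. At P60, 2 of the 7 (Cdh2 and Cdh10) did not overlap, against 8.87% of all genes. For the difference of the genotype effect, 3 of 8 passed between P24 and P20 (Cdh2, Cdh11 and Cdh13, against 8.50% of genes) and 1 of 8 between P24 and P60 (Cdh13, against 5.12%). The number of genes behind these shares was 1197 and 731, and it was 623 without P24 control 2 and 82 without P24 dM1/2 3. These comparisons share the P24 libraries.

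**Figure D3:**
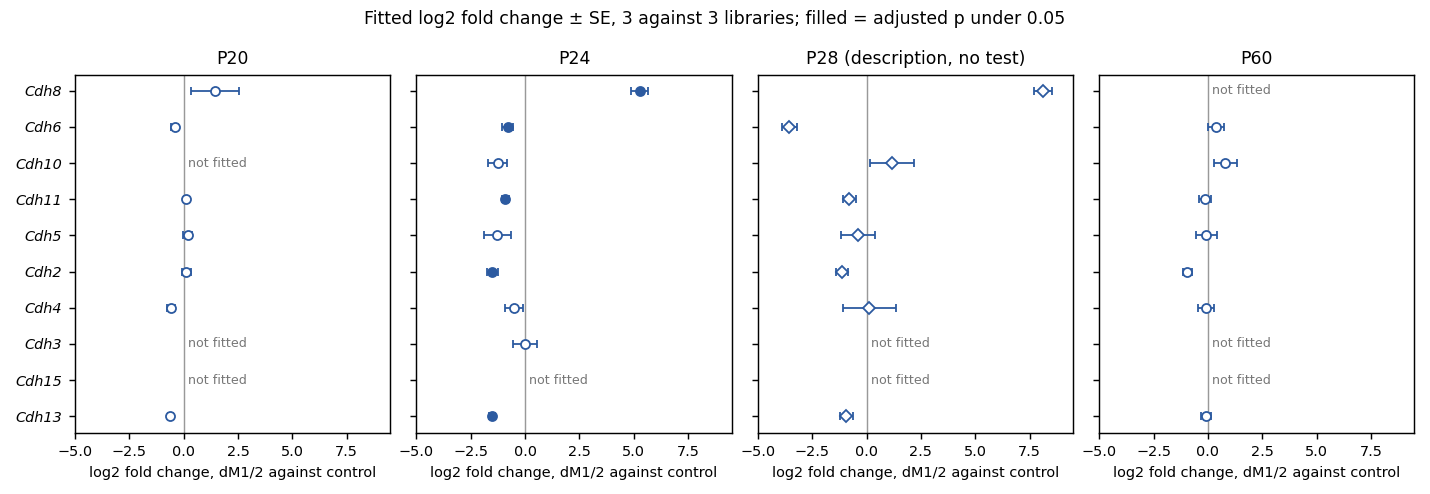
Log2 fold change of dM1/2 against control (x axis) for the 10 cadherins (y axis) at the 4 ages, with bars for the standard error of the limma fit. Filled circles passed the threshold (5 at P24, none at P20 or P60), open diamonds at P28 are a description without a test, and genes below the filter are marked as not fitted.

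Expressed per kb of exon, the make-up of the 10 transcripts in the sorted cells differed between ages, as did the DP and fibroblast marker sums. Cdh11 made up 49.95% ± 0.329 of the summed per-kb level in P20 controls, 77.8% ± 2.44 at P24 and 38.5% ± 4.61 at P60 (SD, n = 3 each). Cdh4 made up 36.8% ± 0.869, 3.41% ± 0.277 and 39.6% ± 4.52 in the same groups. The share of Cdh2 was 8.45% ± 1.61 in P24 controls. In telogen Cdh11 and Cdh4 were thus the leading pair, and in anagen controls Cdh11 alone led. In dM1/2 the Cdh8 share was 1.83% ± 0.247 at P24 and 4.5% ± 0.823 at P28, so that even at its highest level Cdh8 was a small part of the cadherin transcripts. The share of Cdh11 in mutants, 79.1% ± 3.75 at P24, overlapped that of controls.

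The summed per-kb level of the 10 genes was 2295 ± 196 normalized reads per kb in P24 controls and 1203 ± 142 in P24 mutants, without overlap. At P28 it was 2405 ± 559 and 1312 ± 213, again without overlap. At P20 it was 1556 ± 91.2 and 1396 ± 71.1, and at P60 1406 ± 192 and 1373 ± 437, ranges that overlapped. Since Cdh11 dominates the sum in anagen, it mostly follows that gene.

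**Figure D4:**
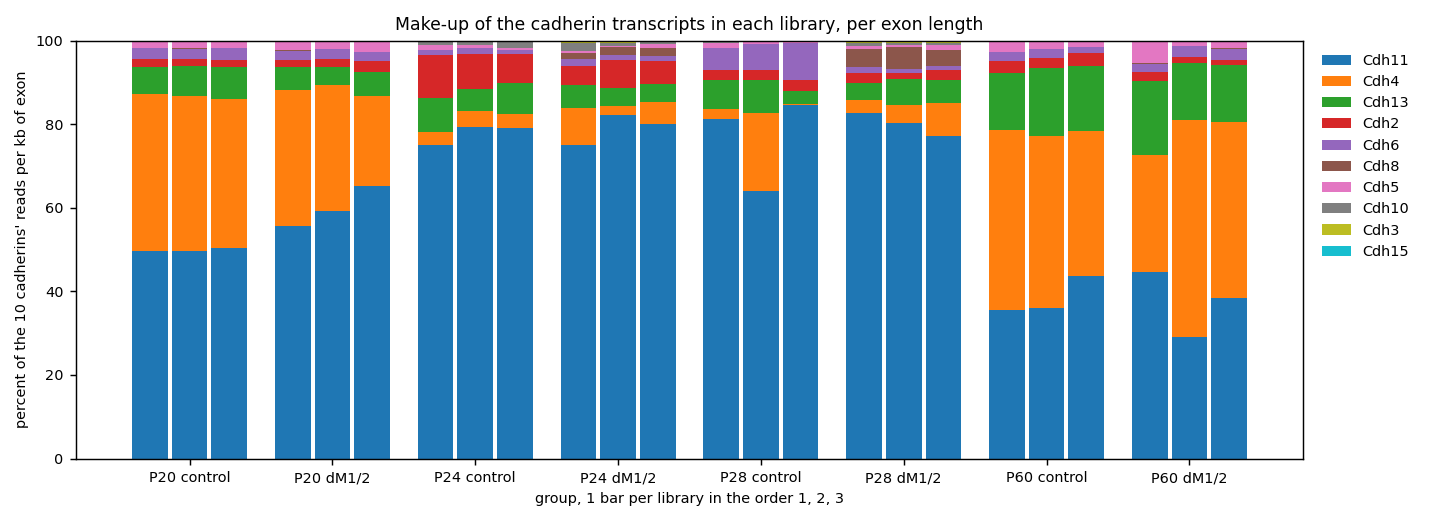
Share of each cadherin in the summed normalized reads per kb of exon (y axis, percent), 1 bar per library by group (x axis). Cdh4 fills a large band at P20 and P60 and a narrow one at P24, the library labelled P28 control 2 has a wider Cdh4 band than the other P28 controls, and Cdh8 is a visible band only in the P24 and P28 mutants.

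Of the 10 genes, 6 lie on chromosome 8, where Cdh11, Cdh5, Cdh3, Cdh13 and Cdh15 are 3.22, 4.69, 7.09, 18.9 and 23.4 Mb from Cdh8. At P24, of the 5 that passed the filter there, Cdh8 rose, Cdh11 and Cdh13 fell, and Cdh5 and Cdh3 did not pass the threshold. Directions on this chromosome were thus mixed. Cdh6 and Cdh10 lie on chromosome 15, Cdh4 on chromosome 2 and Cdh2 on chromosome 18.

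Among the partners of cadherins, the catenins and other cytoplasmic linkers (15 genes tested) had 1 higher and 4 lower at P24 and 2 higher and 5 lower at P28, where 26.6% and 35.5% of all genes passed the threshold. Ctnnbip1, an inhibitor of beta-catenin binding to Tcf, went from 457 ± 66.7 to 791 ± 101 normalized reads (log2 fold change 0.79, SE 0.16, adjusted p = 0.0102) at P24. Ctnna2, the neural alpha-catenin, went from 50.5 ± 22.3 to 9.42 ± 8.22 normalized reads (log2 fold change -2.49, SE 0.59, adjusted p = 0.0197) at P24. Ctnnd1, which encodes p120, went from 617 ± 56.2 to 401 ± 66.3 normalized reads (log2 fold change -0.63, SE 0.16, adjusted p = 0.0235) at P24. Afdn (listed as Mllt4), an actin linker, went from 867 ± 59.4 to 588 ± 87 normalized reads (log2 fold change -0.57, SE 0.14, adjusted p = 0.0233) at P24 and from 1312 ± 139 to 452 ± 83.7 normalized reads (log2 fold change -1.55, SE 0.17, adjusted p = 0.00104) at P28. Ctnnb1, which encodes beta-catenin, was not among the genes past the threshold at any age. No partner of this list passed at P20 or P60 by limma.

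The enzymes that shed or process cadherins (10 genes tested) had no rise and 3 falls at P24 (Furin, Mmp14 and Psen2) and 4 falls at P28 (Adam17, Furin, Pcsk5 and Psen2), beside the same 26.6% and 35.5% of all genes. At P20, where 0.433% of genes passed, Pcsk6 was lower. Furin, a proprotein convertase that matures cadherins, went from 6878 ± 489 to 4124 ± 728 normalized reads (log2 fold change -0.75, SE 0.16, adjusted p = 0.0123) at P24 and from 8267 ± 2386 to 3036 ± 276 normalized reads (log2 fold change -1.41, SE 0.22, adjusted p = 0.00385) at P28. Psen2, a gamma-secretase subunit, went from 501 ± 56 to 156 ± 2.7 normalized reads (log2 fold change -1.67, SE 0.14, adjusted p = 0.00046) at P28. Adam10, the main sheddase of classical cadherins, did not pass at any age. The nectins, immunoglobulin adhesion proteins that cluster at cadherin junctions, had 2 of 4 higher at both ages, and Nectin2 was also higher at P20 (1 of 5 tested). Nectin1 (listed as Pvrl1) went from 824 ± 40.6 to 1537 ± 51.8 normalized reads (log2 fold change 0.90, SE 0.10, adjusted p = 0.00184) at P24 and from 759.9 ± 16 to 1744 ± 64 normalized reads (log2 fold change 1.20, SE 0.10, adjusted p = 0.00046) at P28. Nectin2 (listed as Pvrl2) went from 462 ± 129 to 989 ± 77.3 normalized reads (log2 fold change 1.14, SE 0.22, adjusted p = 0.00909) at P24.

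Of 18 other classical and near cadherins, 10 passed the filter at P24, where 1 rose and 4 fell (26.6% of all genes passed the threshold), and 11 at P28, where 1 rose and 3 fell (35.5%). Cdh22, a type II cadherin, went from 246 ± 129 to 1236 ± 266 normalized reads (log2 fold change 2.42, SE 0.34, adjusted p = 0.00315) at P24. Cdh19 went from 95.5 ± 46.5 to 22 ± 8.88 normalized reads (log2 fold change -2.00, SE 0.49, adjusted p = 0.0211) at P24 and from 275 ± 125 to 18.1 ± 12.5 normalized reads (log2 fold change -3.95, SE 0.51, adjusted p = 0.00176) at P28. Cdh23, the tip-link cadherin of hair cells of the ear, went from 349.7 ± 73.1 to 76.9 ± 43.3 normalized reads (log2 fold change -2.29, SE 0.38, adjusted p = 0.00559) at P24. Cdh19 is also a marker of glia, and the summed glial markers, which include it, were 568 to 1091 in P24 controls and 266 to 466 in P24 mutants, 682 to 1147 and 574 to 743 at P28. The part of glial cells in the Cdh19 values was not tested. Over the partner and related lists together, 32 genes passed the limma threshold at P28, of which 29 still did without P28 control 2 and 29 without the library labelled P28 control 3.

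**Figure D5:**
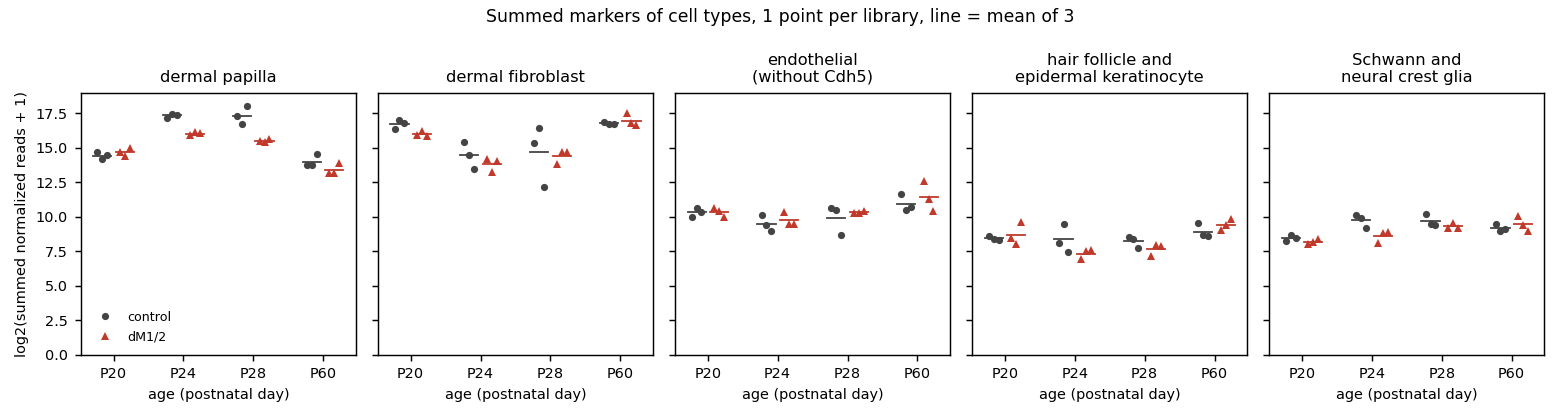
Summed markers of 5 cell types as log2(summed normalized reads + 1) against age, 1 point per library with lines at the means of 3. The dermal papilla sum is lower in all P24 and P28 mutants than in the controls of the same age, and the endothelial and keratinocyte sums overlap between genotypes at P24.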

How the data were processed

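RNA of FACS-sorted DP cells from 24 mice, 3 per genotype and age, was depleted of ribosomal RNA and made into directional libraries. Per the submitters' notes and the methods, the authors used Trimmomatic for trimming, Tophat for alignment to mm10, HTSeq for counting against the GRCm38.p4 Ensembl genes and DESeq2 size factors for scaling. The deposited signal per gene and library is therefore reads over a size factor. Dividing it by the worth of 1 read gave whole reads for 100% of values (within 0.001 of a read). The fold changes and p-values that the authors deposited beside it were not used. The strand setting of the counting is not given in the sources used here.

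The test was limma 3.58.1 (trend, two-sided) in R 4.3.3 on log2(normalized reads + 1). A gene entered a fit if it averaged 10 or more normalized reads there, p-values were adjusted by Benjamini-Hochberg over all such genes, and the threshold was 0.05. Each age was fitted on its 6 libraries, and differences of effects between ages on 12. Fold changes on this scale understate those of low genes. Groups came from the sample labels, which call the libraries biological replicates. Replicate libraries differed by more than counting noise. A count of 0 allows up to 3 reads, and floors cover counting error only. All 10 genes were named at every age. For each list of partners, values were given for genes drawn from up to 3 rises and 3 falls past the threshold at P24 or P28 without overlap. Not all genes that met this rule are given. Of the 5 genes most like Cdh8 by correlation, 1 is not reported here. The members and lists were chosen with earlier results of these data known. The alternatives were pseudocounts of 10 and 0.5, no filter or a filter in every library, a replicate block, edgeR 4.0.16 and DESeq2 1.42.0 on the recovered reads, log2-CPM with a prior count of 2, 1 fit over all 24 libraries and leaving out each library. Code was tested on simulated data. Promoters came from RefSeq (GRCm38.p6) and gene positions from GENCODE (GRCm38).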

Additional observations from a re-analysis of the deposited data

Results flagged for a closer look

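The effect of genotype differed between ages for 3 of the 8 cadherins tested, by a test of the difference itself (limma over 12 libraries). Of all genes, 8.50% passed between P24 and P20 and 5.12% between P24 and P60. Between P24 and P20 the effect differed by -1.62 for Cdh2, by -1.02 for Cdh11 and by -0.91 for Cdh13 on the log2 scale. Between P24 and P60 it differed by -1.42 for Cdh13. In each case the 3 P24 mutants lay below the 3 P24 controls. At P20 the groups of Cdh2 and Cdh11 overlapped, and those of Cdh13 did not. In 1 limma fit over all 24 libraries the P24 against P20 calls of Cdh11 (adjusted p = 0.0737) and Cdh13 (0.101) were lost. The P24 against P60 call of Cdh13 was lost in limma without P24 control 1 (adjusted p = 0.0534) or P24 dM1/2 3 (0.0587). Sex, depth and hair-cycle stage differ together with age, so they cannot be told apart here.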

How the results depend on the processing

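Of 835 recomputed values of single cadherins, 776 kept their direction and side of the threshold, or at P28 moved by under 1 SD. For genes not past the threshold at P28, a turn of sign within 1 SD is counted among these. Of the 167 that concern a call outside P28, 155 still passed and none changed direction. The count of members past the threshold at P20 was 0, and was 1 with the replicate block and with DESeq2 (Cdh13 in both), and 0 to 1 when single libraries were left out. At P24 it was 5, 4 to 7 with other settings and 4 to 6 when libraries were left out. At P28 the members were chosen by the same contrast, so nothing is read from the number. As a description, the count there was 4 of 8, beside 35.5% of all genes. It was 2 to 4 when libraries were left out (2 without control 1, dM1/2 1 or dM1/2 2). Between P24 and P60 it was 1, 2 with a pseudocount of 10, and 0 to 2 when libraries were left out. Between P24 and P20 it was 3, and 2 to 4. With 1 fit over all 24 libraries the P24 against P20 calls of Cdh11 (adjusted p = 0.0737) and Cdh13 (0.101) were lost and that of Cdh8 was made (limma). The causes were not tested.

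Outside P28, values of genes that did not pass turned sign as follows. Cdh3 at P24 was 0.0032 with a pseudocount of 0.5 and -0.44 to 0.16 when libraries were left out. Cdh4 at P60 was 0.025 by edgeR with TMM, 0.037 with DESeq2 size factors, 0.037 by DESeq2 and -0.35 to 0.39 when libraries were left out. Cdh5 at P60 was 0.086, 0.092, 0.092 and -0.54 to 0.47 likewise. When libraries were left out, Cdh2 at P20 was -0.055 to 0.26, Cdh11 at P60 -0.40 to 0.054, Cdh13 at P60 -0.28 to 0.049, and the differences for Cdh4 -0.32 to 0.56 (P24 against P20) and -0.90 to 0.068 (P24 against P60). Signs also turned at P28, described without a test, when libraries were left out. Cdh4 went from 0.13 to between -1.18 and 1.43, Cdh5 from -0.39 to between -1.03 and 0.33, and Cdh10 from 1.17 to between -0.14 and 1.92.

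Over all genes, the count past the threshold at P20 was 60, 439 with the replicate block, 663 by DESeq2 and 0 to 1530 when libraries were left out, the highest without P20 control 1 and at most 11 without any other. At P24 it was 3735, 2366 with the block and 2057 to 4012, with 2057, 2357 and 2365 without control 2, dM1/2 1 and dM1/2 3. At P28 it was 5018 and 3043 to 5788 when libraries were left out, with 3267, 3043 and 3310 without control 1, dM1/2 2 and dM1/2 3. For P24 against P20 it was 1197, 2030 by DESeq2, 791 with the block and 623 to 1850 when libraries were left out, moving by over 1.5 times without any P20 control, P20 dM1/2 2 or 3, P24 control 2 or P24 dM1/2 3. For P24 against P60 it was 731, 1765 by DESeq2, 1407 in 1 fit over all libraries, 480 with the block and 82 to 972 when libraries were left out, moving by over 1.5 times without any library but P24 control 3 and the P60 mutants. At P60 it was 0, 26 by DESeq2, 0 by edgeR, with 525 at an unadjusted p under 0.05. The replicate numbers are shared by the groups of an age. Their libraries' deviations correlated at 0.0822 to 0.231 at P20, -0.401 to 0.0425 at P24, -0.229 to 0.027 at P28 and 0.0238 to 0.344 at P60, so the numbers were not taken as pairs. With the block, Cdh6 at P24 had an adjusted p of 0.0875 and Cdh13 at P20 of 0.039 (limma), with 4 members past the threshold at P24. Depth limits Cdh3, Cdh8, Cdh10 and Cdh15 at P20 and P60.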

Other observations

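Transcription factors of the epithelial-mesenchymal family, which repress cadherin genes in other tissues, moved in both directions (8 of 9 listed genes tested), with 1 higher and 1 lower at P24 and 4 higher and 2 lower at P28, where 26.6% and 35.5% of all genes passed the threshold. Snai1 went from 1046 ± 12.1 to 2131 ± 242 normalized reads (log2 fold change 1.02, SE 0.12, adjusted p = 0.00186) at P24 and from 690.5 ± 109 to 1936 ± 103 normalized reads (log2 fold change 1.5, SE 0.14, adjusted p = 0.000691) at P28 by limma. Snai2 went the other way, from 1068 ± 113 to 402 ± 52.5 normalized reads (log2 fold change -1.41, SE 0.14, adjusted p = 0.00139) at P24 and from 532 ± 201 to 191 ± 18.2 normalized reads (log2 fold change -1.39, SE 0.30, adjusted p = 0.0121) at P28. At P28 Twist1 went from 2003 ± 306 to 3924 ± 295 normalized reads (log2 fold change 0.98, SE 0.15, adjusted p = 0.00353) and Zeb2 from 14135 ± 2536 to 8315 ± 971 normalized reads (log2 fold change -0.76, SE 0.20, adjusted p = 0.0241). None of this list passed at P20 or P60 by limma.

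Among the larger cadherins (Fat, Dachsous, Celsr and calsyntenin, 11 tested), 2 rose and 3 fell at P24, and 2 rose and 4 fell at P28. Of all genes, 26.6% and 35.5% passed the threshold at these ages. Celsr3, a planar polarity cadherin, went from 24.7 ± 4.94 to 365 ± 40.6 normalized reads (log2 fold change 3.84, SE 0.22, adjusted p = 0.000202) at P28, and Fat4 from 7253 ± 650.4 to 2067 ± 496 normalized reads (log2 fold change -1.83, SE 0.19, adjusted p = 0.000923). Celsr1 was higher in dM1/2 at P24, from 68.4 ± 34.7 to 241 ± 52.8 normalized reads (log2 fold change 1.89, SE 0.36, adjusted p = 0.00909), and lower at P28, from 310.5 ± 121 to 117 ± 35 normalized reads (log2 fold change -1.37, SE 0.36, adjusted p = 0.0245). The difference of its effect between P24 and P28 was not tested. Clstn3 was higher at both ages, from 84.4 ± 22.4 to 164 ± 12.9 normalized reads (log2 fold change 0.99, SE 0.23, adjusted p = 0.0188) at P24 and from 31.7 ± 21.9 to 201 ± 51.4 normalized reads (log2 fold change 2.97, SE 0.68, adjusted p = 0.015) at P28. Of the non-clustered protocadherins, 11 were tested at P24, with 1 higher and 1 lower (Pcdh20). At P28, 12 were tested, with 2 higher and 1 lower (Pcdh18), beside the same shares of all genes. Pcdh17 was higher at both ages, from 94.6 ± 59.4 to 241 ± 54.8 normalized reads (log2 fold change 1.49, SE 0.42, adjusted p = 0.0348) at P24 and from 64.7 ± 37.8 to 239 ± 88.7 normalized reads (log2 fold change 1.97, SE 0.48, adjusted p = 0.0182) at P28. Of 9 desmosomal cadherins only 1 reached the filter at P24 and at P28, and it did not pass the threshold.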
